A study of Homo sapiens with 4 samples.

Results

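The histone genes described here are the 76 genes, with 113 of the 50238 probes that are not controls, whose names on the array begin with HIST1H, HIST2H, HIST3H or HIST4H or are H2AFX, H2AFZ, H2AFY, H2AFV, H3F3A, H3F3B, H1F0 or H1FX. The whole array carries 31033 gene names. By name alone, 63 of the 76 genes (90 probes) were taken as replication-dependent, 8 (17 probes) as replacement histones and 4 (4 probes) as testis genes of the clusters, and HIST2H2BA, with 2 probes, is annotated as a pseudogene. No expression value was used to choose them.

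Cy3 labeled RNA was measured on 4 single color Agilent arrays, 2 of a vector control clone (vec) and 2 of a PKP3 knockdown clone (shpkp3-2). PKP3 encodes plakophilin 3, a protein of the desmosome. Both clones derive from HCT116, an established colorectal carcinoma cell line, and shpkp3-2 was made by stable transfection of a plasmid that encodes a short hairpin RNA. The labels name 5 μg/ml of puromycin for the cells, whereas the methods of the study name blasticidin. RNA was collected on 2 occasions, vec 1 together with shpkp3-2 1 and vec 2 together with shpkp3-2 2. As there is 1 control clone and 1 knockdown clone, each value compares these 2 clones, and p-values measure only the spread between the arrays.

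Each nucleosome holds DNA around a core of histones H2A, H2B, H3 and H4, and histone H1 binds the DNA between cores. Most histone genes lie in clusters and are replication-dependent, which means that they are transcribed mainly in S phase, when new DNA has to be packaged, and that their mRNA ends in a stem-loop bound by SLBP in place of a poly(A) tail. Replacement histones are encoded by single genes outside the clusters, and most give polyadenylated mRNA and are made through the whole cell cycle. H2AFX is known to give a stem-loop mRNA as well as a polyadenylated one. As Agilent's Quick Amp labeling starts from an oligo-dT primer, a probe of a stem-loop mRNA reads what such priming captures, and polyadenylated forms of some cluster genes are known.

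The stem-loop can be read in the probes themselves. The histone stem-loop, a run of 16 bases with 6 paired bases on each side of a loop of 4, was found in 6 of the 50238 probe sequences, and all 6 belong to the histone genes, to 5 replication-dependent ones. The last 30 bases of 5 of these probes are shown, 1 for each gene, because they cover the end that sets this message apart from a polyadenylated one. Capitals mark the stem-loop.
HIST1H2AI: ggaaccaaaGGCTCTTTTCAGAGCCaccta
HIST1H4K: ctatcaacaaaaGGCCCTTTTTAGGGCCcc
HIST2H2AA3: aactcaaaaGGCTCTTTTCAGAGCCaccca
HIST2H3C: cgtatccaaaaGGCTCTTTTCAGAGCCacc
HIST2H4A: gatcccaaaGGCCCTTTTTAGGGCCgacca
The stem-loops of HIST1H2AI, HIST2H2AA3 and HIST2H3C are the same 16 bases, and those of HIST1H4K and HIST2H4A are the same. All 6 probes were well above background on all 4 arrays. Between probes of different histone genes, 26 pairs share a run of at least 20 bases and 5 pairs at least 30, the longest being 41 bases in HIST1H2BN and HIST2H2BE, so that the signals of near-identical genes cannot be fully assigned to 1 gene.

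The start regions of these genes hold short motifs that vary by family. Of the 76 genes, 69 have an entry in the RefSeq promoter table (GRCh38.p14), and the 250 bases before the start were searched on both strands for 10 short motifs, chosen with the sequences at hand. CCAAT was present in 33.0% of all 27305 promoters, in 46 of the 46 replication-dependent H1, H2A, H2B and H3 promoters and in 3 of 12 H4 promoters. The octamer ATTTGCAT was present in 1.66% of all promoters, in 10 of 14 H2A and 13 of 17 H2B promoters, and in none of the 12 H4 promoters. AAACACA was in all 5 H1 promoters against 4.95% of all, and TTCCCGCC in 8 of 12 H4 promoters against 2.77% of all. Of the others, TATAAA was in 38 of 58 replication-dependent promoters (11.1% of all), TTTCGCGC in 11 (0.469% of all), GGTCC in 20 (40.4% of all), CGGTCCG, which contains GGTCC, in 2 (2.38% of all), and CGTCCG and CTCACATTT in 0 (7.26% and 0.286% of all). Of 7 replacement promoters, 5 held CCAAT, 4 held TATAAA and 1 held ATTTGCAT, and none held AAACACA or TTCCCGCC. A match describes the letters only. The 150 bases before the start of 1 gene of each pattern are given, with these motifs in capitals (TTCCCGCC in H4, CCAAT and ATTTGCAT in H2B, CCAAT and AAACACA in H1, on either strand).
HIST1H4D, chr6:26189113-26189262, minus strand: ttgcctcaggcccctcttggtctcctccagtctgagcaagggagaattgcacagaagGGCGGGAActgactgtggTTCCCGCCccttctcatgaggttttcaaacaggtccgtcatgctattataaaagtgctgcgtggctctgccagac
HIST1H2BM, chr6:27814872-27815021, plus strand: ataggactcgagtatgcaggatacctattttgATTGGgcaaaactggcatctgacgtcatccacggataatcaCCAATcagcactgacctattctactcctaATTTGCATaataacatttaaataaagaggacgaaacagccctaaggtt
HIST1H1E, chr6:26156179-26156328, plus strand: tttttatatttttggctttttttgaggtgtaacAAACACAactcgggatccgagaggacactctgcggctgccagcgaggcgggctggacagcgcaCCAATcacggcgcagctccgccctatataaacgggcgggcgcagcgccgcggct

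Across the series, the summed intensity of the arrays lay between 115635392 and 130032824, 60.5% to 63.5% of spots were well above background, and 0 spots were saturated. PKP3 itself had intensities of 20850 and 22840 in vec against 3414 and 3078 in shpkp3-2, a log2 fold change of -2.54 (limma adjusted p = 0.0188). Of 9 simple epithelium and colon markers 6 were well above background on all 4 arrays. The summed intensity of all 9 was 476700 to 549050 in vec against 531240 to 534720 in shpkp3-2 before scaling. On the scaled log2 values, 6 of the 6 tested ones had a log2 fold change above 0, with a median of 0.28, and limma called 0 of them, also at an unadjusted p under 0.05. Of 6 markers each, those well above background on all 4 arrays were 2 stratified epithelium markers (sums 26146 to 32116 and 27950 to 29905), 1 fibroblast marker (119 to 202 and 126 to 144) and 4 leukocyte markers (185 to 277 and 216 to 263), and PTPRC and LYZ were above background on none. The 3 stratified epithelium markers tested had a median log2 fold change of 0.21, all above 0, and 1 of them, LORICRIN, passed an unadjusted p of 0.05 (0.84; limma adjusted p = 0.319). LORICRIN was dim, with intensities of 15.3 and 8.4 in vec against 21.5 and 14.3 in shpkp3-2, and was well above background on 3 arrays. The part of these markers in the histone values was not tested. In bulk RNA, a different share of cells in S phase and a different amount of histone RNA per cell cannot be told apart. All 4 arrays lay on 1 slide, with the arrays of a clone side by side, and the effect of the position cannot be told apart from that of the clone.

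Most histone genes were detected. A probe was tested where both arrays of vec, or both of shpkp3-2, were well above background, and 91 of the 113 probes, of 66 genes, passed, each of them on all 4 arrays. Of the probes left, 18 were well above background on no array and 4 on 1 or 2 arrays. All 17 replacement probes passed, against 73 of 90 replication-dependent probes (57 of 63 genes). The replication-dependent genes without a passing probe were the H1 genes HIST1H1A and HIST1H1B, which were above background on 1 array each, HIST1H2AL, HIST2H2BF, HIST1H4G and HIST4H4. Of the testis genes, HIST1H1T and HIST1H2BA were on no array, HIST1H2AA was on 2 arrays, and HIST3H3 was well above background on all 4. The signal of HIST3H3, an H3 gene known from testis, was 7.22 and 7.50 in vec against 7.22 and 7.21 in shpkp3-2, given here and below as log2 intensity relative to the 75th percentile of the array.

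No histone probe passed the test of limma between the clones. At an adjusted p of 0.05, 0 of the 91 probes were called, where 0.396% of the 30520 probes tested were called in either direction (0.249% higher and 0.147% lower), and the smallest adjusted p of a histone probe was 0.199, at the dimmer probe of HIST1H2AC. At an unadjusted p under 0.05, 4 histone probes were lower in shpkp3-2 and 0 were higher, where 4.98% of all probes were lower and 7.36% were higher. The 4 were 1 probe each of H2AFY, H2AFV, HIST1H2AC and HIST2H2BE, and that of HIST2H2BE went from -0.50 to -0.034 under normexp. A 2-fold rule was also applied. By it each shpkp3-2 array has to differ from the vec mean by 1 or more on the log2 scale, and 0 histone probes met it in either direction, where 0.68% of all probes met it as higher and 0.379% as lower. At a 1.5-fold threshold, which the legends use for such clones, 3 histone probes were lower (1.61% of all probes) and 0 were higher (2.58%). The 3 were the probe of H2AFY and the dimmer probes of H2AFV and HIST1H2AC. The shpkp3-2 arrays were both below the vec arrays for 27 histone probes, where 18.0% of all probes did so, and above them for 3, where 27.2% did. For 1 gene, the smallest two-sided p that an exact permutation test over 2 and 2 arrays allows is 0.333.

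Although single genes did not pass, the replication-dependent genes leaned to lower values in shpkp3-2 when the 2 arrays of each clone were averaged. With the brightest probe of each gene, the log2 fold change was below 0 for 49 of the 57 replication-dependent genes (86%) and for 5 of the 8 replacement genes, against 41.7% of the 20248 genes tested. The median log2 fold change was -0.15 for replication-dependent genes, -0.07 for replacement genes and 0.06 for all genes. By family, the median was -0.18 for H1 (3 genes), -0.11 for H2A (14), -0.15 for H2B (16), -0.13 for H3 (12) and -0.15 for H4 (12), and all 16 H2B genes lay below 0. Under normexp, quantile and median scaling, each of these 5 medians was below 0 as well, and 49 to 55 of the 57 replication-dependent genes were. The family values depended on single arrays. Without vec 2, the median became 0.08 for H2A, where 2 of the 14 genes lay below 0, and 0.24 for H4, where 3 of the 12 did. The H2B median was then -0.05, with 9 of the 16 genes below 0, and that of H3 was -0.08, with 7 of the 12. That of H1 was -0.26, with 4 of the 5 genes that then passed the filter below 0. Without vec 1, the medians were -0.36 for H1, -0.27 for H2A, -0.24 for H2B, -0.32 for H3 and -0.37 for H4. Without shpkp3-2 2, the H4 median was 0.09 and 13 of the 16 H2B genes lay below 0. Probes of several H2B genes share runs of 20 to 41 bases, so the 16 H2B genes are not 16 separate readings. Genes of the HIST1 cluster had a median of -0.15 (48 genes) and those of the HIST2 cluster of -0.07 (7 genes). The 2 classes differed by -0.08 in their medians, which became 0.04 under quantile normalization, when the replacement median was -0.22, and -9.0e-05 when the detected probes of each gene were averaged. These medians have no test, since the genes share the same 4 arrays.

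**Figure D1:**
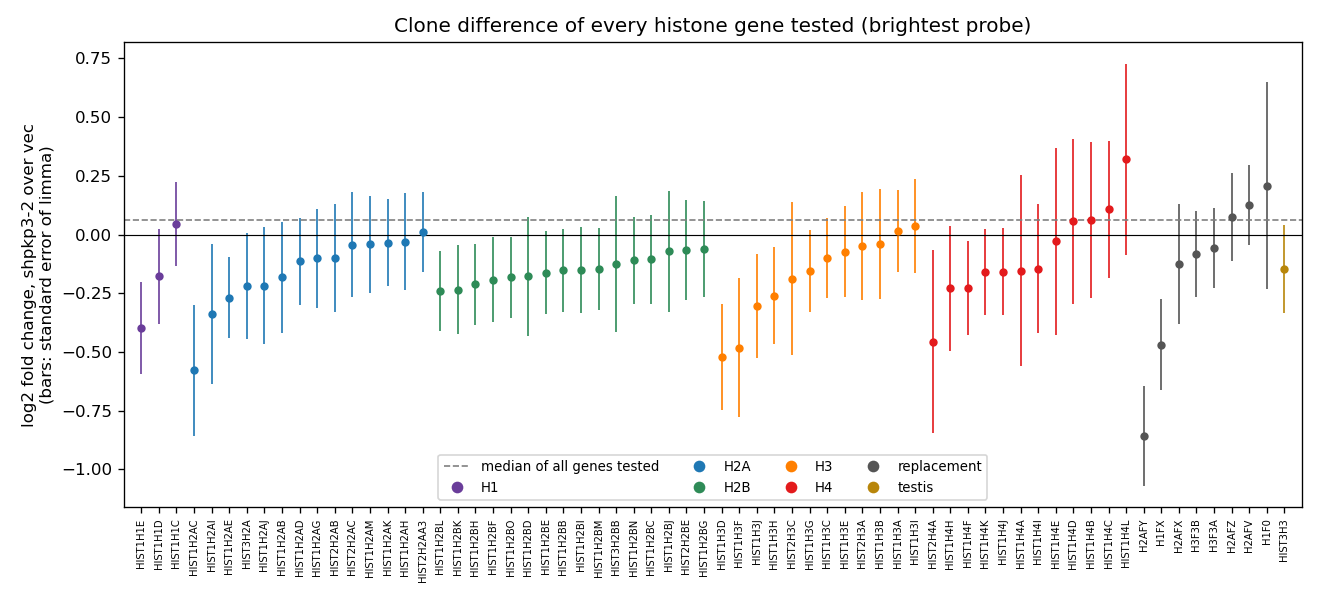
Log2 fold change of shpkp3-2 over vec (vertical axis) for the 66 histone genes tested, each by its brightest probe and grouped by family along the horizontal axis, with the standard error of limma as bars and the median of all genes as a dashed line. The H2B genes all lie below 0 (9 of the 16 without vec 2), the H4 genes have long bars and lie on both sides of 0, and H2AFY lies lowest of all at -0.86.

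As a class, the replication-dependent genes showed this lean in the second RNA collection and not in the first. In the second collection, where shpkp3-2 2 is compared with vec 2, 56 of the 57 replication-dependent genes were lower in the knockdown clone, with a median of -0.33, while the median of all genes was 0.02 and 47.7% of them were lower. In the first collection 19 of the 57 were lower and the median was 0.08, against 0.11 and 40.6% for all genes. The H4 genes differed most between the collections, with medians of 0.49 and -0.60. The H2B genes differed least, at -0.07 and -0.24, and 9 of the 16 were lower in both. Lower in both were 18 of the 57 replication-dependent genes (31.6%) and 21.8% of all genes. The H1 medians were -0.10 and -0.41, with 2 of the 3 genes lower in each collection. Without vec 2, the median of the replication-dependent genes was 0.01 and 25 of 59 lay below 0. With any other array left out it lay between -0.28 and -0.08. Replacement genes had medians of 0.02 and -0.17 in the 2 collections.

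The replication-dependent genes also differed between arrays of the same clone. Most replication-dependent genes were higher on vec 2 than on vec 1 and higher on shpkp3-2 1 than on shpkp3-2 2. This held for 41 of the 57 genes (71.9%), against 34.7% of all genes tested, and the opposite held for 5 of them. The median difference was 0.37 between the vec arrays and 0.12 between the shpkp3-2 arrays, where all genes had 0.06 and 0.01. Across the 57 genes, the vec difference and the shpkp3-2 difference had a Pearson correlation of 0.576 (0.198 across all genes). By family it was 0.892 for H2A, 0.846 for H2B, 0.404 for H3 and 0.109 for H4. The H4 value leans on HIST2H4A (1.14 and -0.43) and the H2A value on HIST1H2AC (-0.64 and -0.41), so the families cannot be ranked by it. These correlations describe genes that share the same 4 arrays and are not replicates. No test was made of this pattern, since each clone has 2 arrays.

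**Figure D2:**
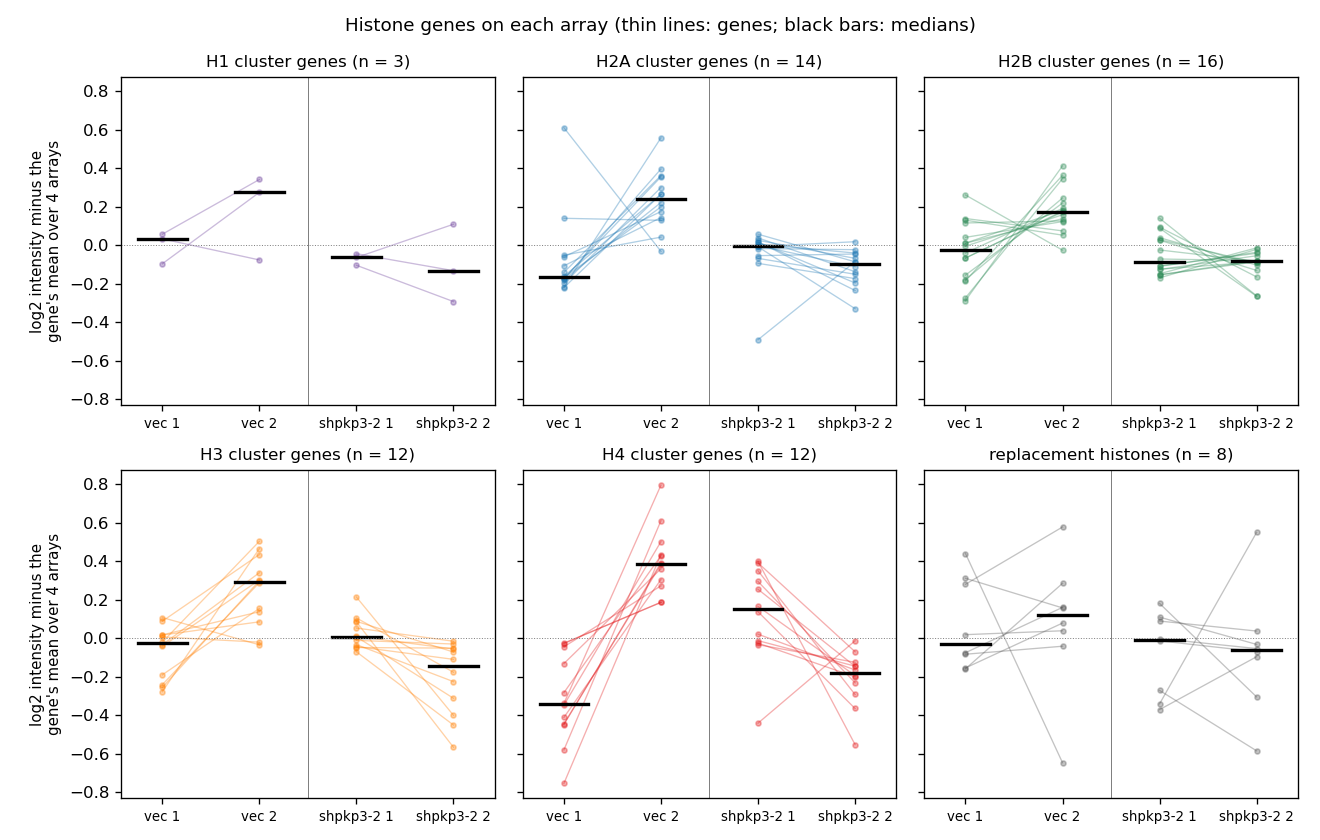
Log2 intensity of each histone gene tested, apart from the testis gene HIST3H3, on each of the 4 arrays after its own mean over the arrays is subtracted, with 1 panel per family, thin lines joining the arrays of a clone and black bars at the medians. The H4 genes run from a median of -0.34 on vec 1 to 0.39 on vec 2 and from 0.15 on shpkp3-2 1 to -0.18 on shpkp3-2 2, and the other cluster families show smaller steps.

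The H4 genes had the largest median differences of both kinds. HIST1H4L, an H4 gene of the HIST1 cluster, was 5.62 and 6.81 in vec against 6.77 and 6.30 in shpkp3-2, and its log2 fold change between the clones was 0.32 (SE 0.41), from 1.15 in the first collection and -0.51 in the second. HIST1H4C, another H4 gene of that cluster, was 8.26 and 8.98 in vec against 8.93 and 8.52 in shpkp3-2. HIST1H4D, whose start region is shown above, was 1.90 and 2.74 in vec against 2.70 and 2.05 in shpkp3-2. In all 3 genes, vec 2 and shpkp3-2 1 were the high arrays, vec 1 was the lowest, and the clones overlapped. The log2 fold changes were 0.11 for HIST1H4C and 0.06 each for HIST1H4D and HIST1H4B, and they changed sign under quantile normalization. Over the family, 12 of 12 genes were higher on vec 2 than on vec 1 (median 0.77) and 11 of 12 were higher on shpkp3-2 1 than on shpkp3-2 2 (median 0.38). The exception was the brightest probe of HIST2H4A, 1 of the stem-loop probes, at 3.08 and 4.22 in vec against 2.98 and 3.41 in shpkp3-2. Its log2 fold change was -0.46 (SE 0.39), and the 2 other probes of HIST2H4A gave -0.44, which became -0.045 under normexp, and -0.22. At these 2 probes both differences were above 0, at 0.60 and 0.07 and at 0.37 and 0.17, so the probes of HIST2H4A disagreed. HIST1H4K, also measured through its stem-loop, was the only H4 gene whose brightest probe did not overlap between the clones, with 0.99 and 1.20 in vec against 0.98 and 0.89 in shpkp3-2.

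The H3 genes, whose tails carry many of the known chromatin marks, followed with smaller steps: 10 of 12 had both differences above 0, with medians of 0.35 and 0.18. Under quantile normalization 7 of the 12 did. HIST1H3D was 1.89 and 2.23 in vec against 1.73 and 1.35 in shpkp3-2, a log2 fold change of -0.52 (SE 0.23), and its second probe gave -0.84. The clones did not overlap for HIST1H3D, and the difference was -0.16 in the first collection and -0.89 in the second. HIST1H3F was -0.36 and 0.16 in vec against -0.25 and -0.91 in shpkp3-2, a log2 fold change of -0.48 (SE 0.30; -0.81 to -0.16 with an array left out), and the clones overlapped. The second probe of HIST1H3D shares 26 bases with the probe of HIST1H3F. HIST1H3J was -0.68 and -0.31 in vec against -0.64 and -0.96 in shpkp3-2, with a log2 fold change of -0.31 (-0.49 to -0.12 with an array left out), whereas HIST1H3A (0.02) and HIST1H3I (0.04) were near 0.

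**Figure D3:**
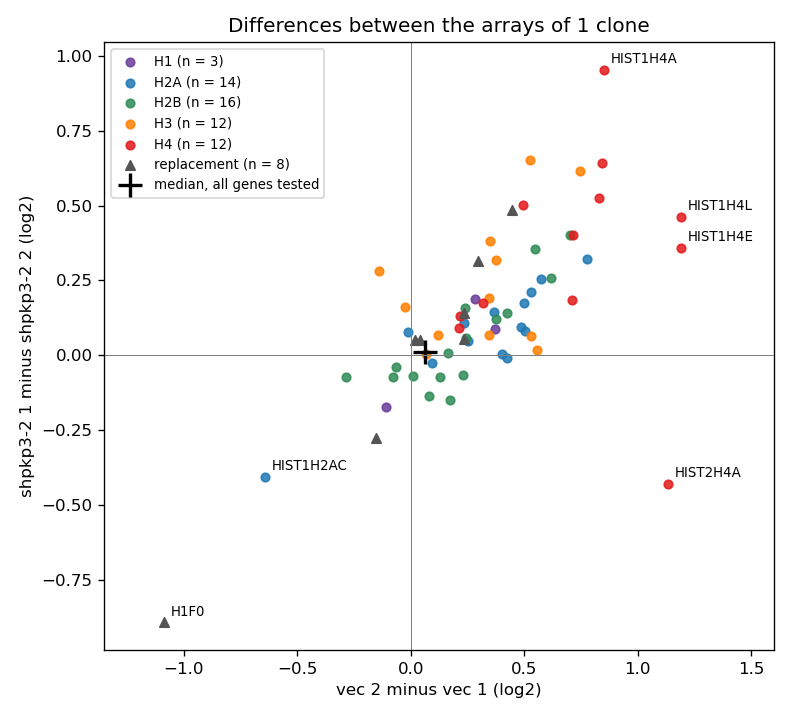
Difference between the vec arrays (horizontal axis, log2) against the difference between the shpkp3-2 arrays (vertical axis, log2) for the replication-dependent and replacement genes tested, coloured by family, with a cross at the median of all genes. Most points lie at the upper right, led by H4 genes, while H1F0 lies at the lower left at -1.09 and -0.89 and HIST1H2AC at -0.64 and -0.41.

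H2A and H2B pair in the nucleosome core, and the promoters of their genes most often hold the octamer. Of the 14 H2A genes, 10 had both differences above 0 (medians 0.41 and 0.09). HIST1H2AI, measured through its stem-loop, was -1.76 and -0.98 in vec against -1.55 and -1.87 in shpkp3-2, with a log2 fold change of -0.34 (SE 0.30; -0.18 under normexp). HIST2H2AA3, whose brightest probe also holds the stem-loop, was 2.34 and 2.44 in vec against 2.39 and 2.41 in shpkp3-2, with a log2 fold change of 0.01. HIST1H2AE was -0.68 and -0.69 in vec against -0.92 and -0.995 in shpkp3-2, a log2 fold change of -0.27 (SE 0.17; -0.17 under normexp) with no overlap of the clones. Of the 16 H2B genes, 8 had both differences above 0 (medians 0.20 and -0.01). The second of these medians was 0.04 under median centring. In the H2B genes vec 2 stood apart, with a median of 0.17 relative to the mean of the 4 arrays, against -0.02, -0.09 and -0.09 on vec 1 and the shpkp3-2 arrays. HIST1H2BM, whose start region is shown above, was 0.93 and 1.05 in vec against 0.80 and 0.88 in shpkp3-2, with a log2 fold change of -0.15 (SE 0.18) and no overlap of the clones.

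Of the 5 linker histone H1 genes of the clusters, 3 were tested. HIST1H1E was 1.36 and 1.64 in vec against 1.19 and 1.00 in shpkp3-2, a log2 fold change of -0.40 (SE 0.20; limma adjusted p = 0.481), with no overlap of the clones. HIST1H1D was -0.19 and 0.18 in vec against -0.14 and -0.23 in shpkp3-2. HIST1H1C was 3.89 and 3.78 in vec against 3.80 and 3.97 in shpkp3-2, and it was lower on vec 2 than on vec 1, against most of the cluster genes.

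HIST1H1C is also 1 of 6 cluster genes for which a polyadenylated transcript is known, and these 6 split evenly. HIST1H2BC, HIST1H2BD and HIST2H2BE had both within-clone differences above 0, and HIST1H1C, HIST1H2AC and HIST1H2BK had both below 0. HIST1H2AC was -0.58 and -1.22 in vec against -1.68 and -1.28 in shpkp3-2, so that vec 1 was the high array. Its log2 fold change was -0.58 (SE 0.28), and its second, dimmer probe, at -3.95 and -3.99 in vec against -4.69 and -4.74 in shpkp3-2, gave -0.75 (SE 0.17; limma adjusted p = 0.199). That probe had intensities of at most 32.3, and its log2 fold change was -0.10 under normexp background correction. HIST1H2BK was 2.10 and 1.82 in vec against 1.69 and 1.76 in shpkp3-2, a log2 fold change of -0.23 (SE 0.19). The log2 fold changes of HIST1H2BC, HIST1H2BD and HIST2H2BE were -0.11, -0.18 and -0.07. Their share with both differences above 0, 3 of 6, stands beside 41 of 57 for all replication-dependent genes, which include them.

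The replacement histones held the largest difference between the clones. H2AFY encodes macroH2A, an H2A variant with a large extra domain that is found in silent chromatin. It was 4.90 and 5.20 in vec against 4.35 and 4.04 in shpkp3-2, with a log2 fold change of -0.86 (SE 0.21), or 55.2% of the vec level. The clones did not overlap, and the difference was -0.55 in the first RNA collection and -1.16 in the second. It did not pass the test (limma adjusted p = 0.226, and 0.0774 to 0.7845 over the alternatives). H1FX, a linker histone outside the clusters, was 2.61 and 2.46 in vec against 1.93 and 2.20 in shpkp3-2, with a log2 fold change of -0.47 (SE 0.19; limma adjusted p = 0.41) and no overlap of the clones.

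H1F0, the linker histone known to accumulate in cells that stop dividing, ran against the cluster genes. It was 5.09 and 4.0 in vec against 4.30 and 5.20 in shpkp3-2, so that vec 1 and shpkp3-2 2 were its high arrays. Its log2 fold change was 0.21 (SE 0.44), made up of -0.78 in the first collection and 1.20 in the second. H2AFX, the H2A variant that is phosphorylated at DNA breaks, behaved like the cluster genes, with 6.17 and 6.61 in vec against 6.51 and 6.02 in shpkp3-2. Its log2 fold change was -0.13 (SE 0.26). H1F0 and H2AFX were thus high on different arrays.

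The other 4 replacement histones had small log2 fold changes at their brightest probes. H2AFZ encodes H2A.Z, found at promoters, and was 7.52 and 7.75 in vec against 7.79 and 7.64 in shpkp3-2, with log2 fold changes of 0.08 to 0.17 over its 3 probes. H2AFV, which encodes a second H2A.Z, had a log2 fold change of 0.13 at its brighter probe (6.33 and 6.37 in vec, 6.50 and 6.45 in shpkp3-2) and of -0.71 at its dimmer one, where it was -0.20 under normexp, so that its probes disagreed in sign. H3F3A and H3F3B both encode H3.3, which replaces H3 outside replication. H3F3A was 7.55 and 7.57 in vec against 7.53 and 7.48 in shpkp3-2, with log2 fold changes of -0.10 to 0.15 over 5 probes. H3F3B was 8.05 and 8.29 in vec against 8.12 and 8.06 in shpkp3-2, with log2 fold changes of -0.36 to -0.08 over 3 probes. Of the 8 replacement genes, 6 had both within-clone differences above 0 under the 75th percentile, but only 2 had under quantile normalization, when the median vec difference turned to -0.14. The H4 count, 11 of 12, was the same under normexp, quantile and median scaling, and that of the replication-dependent genes was 36 to 43 of 57.

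Other genes of S phase differed between the arrays in the same direction. Of 44 listed genes of DNA replication and S phase, 41 were on the array and tested, and 34 of the 41 (82.9%) had both within-clone differences above 0, with medians of 0.42 and 0.32 (29 of 41 under quantile normalization), whereas their median log2 fold change between the clones was -0.03. limma called 0 of them, and 0 passed an unadjusted p of 0.05. MCM5, a subunit of the replicative helicase, was 4.09 and 5.04 in vec against 4.94 and 4.49 in shpkp3-2. CCNE1, the cyclin that acts at entry into S phase, was 4.33 and 4.91 in vec against 4.87 and 4.45 in shpkp3-2. The 7 exceptions were PRIM2, RRM2, CCNE2, CCNA2, CDK2, RFC3 and RFC5. The largest log2 fold changes of the list were 1.03 for the DNA ligase LIG1 (SE 0.54; 2.70 and 4.46 in vec, 4.73 and 4.49 in shpkp3-2), -0.44 for CCNA2 and -0.37 for MCM10. That of LIG1 was 0.15 without vec 1 and 1.91 without vec 2, and that of MCM10 was -0.61 without shpkp3-2 1 and -0.13 without shpkp3-2 2. The part of cell cycle differences between the cultures in the histone values was not tested.

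Of the 21 histone chaperones, proteins that carry histones to DNA, 17 had both differences above 0 (medians 0.31 and 0.18, and 14 genes under quantile normalization), and limma called 0, with 1 lower and 1 higher at an unadjusted p under 0.05. CHAF1A and CHAF1B, subunits of CAF-1, which deposits histones on newly made DNA, had the pattern of the cluster genes. CHAF1A was 3.63 and 4.13 in vec against 4.17 and 3.74 in shpkp3-2, and CHAF1B was 3.84 and 4.27 in vec against 4.30 and 3.96 in shpkp3-2. NASP, which holds the soluble pool of H3 and H4, had a log2 fold change of 0.60 (SE 0.19), CABIN1 of 0.68 (SE 0.35), and HIRA, the chaperone of H3.3, of -0.57 (SE 0.58), for which vec 2 at 3.06 stood apart from 1.19, 1.37 and 1.75 on the other arrays. Without vec 2 the log2 fold change of HIRA was 0.37, and without vec 1 it was -1.50. CABIN1 was 0.44 and 1.43 in vec against 1.47 and 1.76 in shpkp3-2, with a log2 fold change of 0.18 without vec 1 and 1.18 without vec 2.

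Genes that act on histone mRNA gave a weaker picture. Of 20 listed, 19 were on the array and tested, 13 of them had both differences above 0 (medians 0.13 and 0.15), and limma called 0, with 1 lower and 2 higher at an unadjusted p under 0.05. SLBP, which binds the stem-loops shown above, was 4.62 and 4.66 in vec against 4.55 and 4.31 in shpkp3-2, a log2 fold change of -0.21 (SE 0.18). Most of this difference came from shpkp3-2 2, as shpkp3-2 1 lay close to the vec arrays. The largest log2 fold changes were 0.62 for SYMPK (SE 0.20), a scaffold of the cleavage complex, 0.54 for LSM11 (SE 0.18), a subunit of the U7 particle that cuts histone mRNA, and -0.46 for NPAT (SE 0.18; -0.25 under normexp), a transcriptional coactivator of histone genes. For these 3 genes the arrays of the clones did not overlap, at 3.55 and 3.67 against 4.05 and 4.40 for SYMPK, at 0.06 and -0.08 against 0.49 and 0.57 for LSM11 and at -1.56 and -1.69 against -2.02 and -2.15 for NPAT. Among 8 tested variants outside the rule, of which limma called 0, CENPA, the centromeric H3, had a log2 fold change of -0.67 (SE 0.23; 1.04 and 0.76 in vec, 0.46 and -0.0039 in shpkp3-2), H2AB3 of 0.57 and H1-7 of 0.49, and under normexp those of H2AB3 and H1-7 were 0.33 and 0.29.

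**Figure D4:**
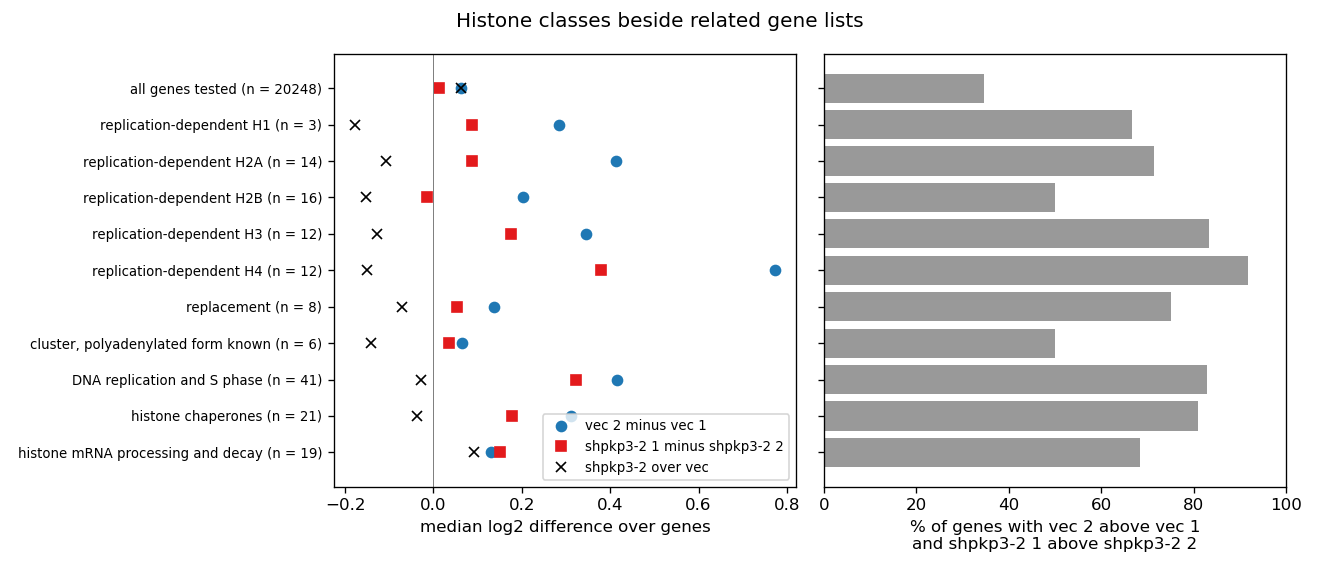
Median log2 differences over the genes of each list (left panel) within vec, within shpkp3-2 and between the clones, and the share of genes with both within-clone differences above 0 (right panel, % of genes). H4 genes (91.7%), H3 genes (83.3%) and S phase genes (82.9%) have the largest shares beside 34.7% of all genes, while the medians between the clones stay between -0.18 and 0.09.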

How the data were processed

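The authors hybridized Cy3 labeled RNA, and the deposited tables hold spot intensities from Agilent Feature Extraction (version 10.7.3.1 in the file headers, 9.1 in the submitters' processing notes). The deposited processed intensity is on a linear scale after detrending and background subtraction, with no scaling between arrays. The deposited mean and background intensities are uncorrected, and deposited 0 or 1 flags are another kind of value. Probe names are those of a design built on hg18. From the deposited intensities, the log2 was scaled by subtracting the array's 75th percentile, outlier spots were left out and the spots of a probe averaged. A probe counted as well above background where the software called at least 50% of its spots so. limma 3.58.1 (R 4.3.3) was fitted to the 30520 probes well above background on both arrays of a clone, with Benjamini-Hochberg adjustment over all of them and a threshold of 0.05. The brightest probe tested stands for a gene. Counts and medians came from Python 3.11.15 with pandas 2.3.3 and numpy 2.4.6, and the plots from matplotlib 3.10.9. The number of arrays limits the precision. Data were simulated from the means of the same 30520 probes, with their standard deviations shuffled between probes. There limma recovered 74 of 200 probes changed by 2 on the log2 scale and called 2 unchanged ones. Smaller changes, such as those of the histone genes, were not simulated.

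Gene names were updated through RefSeq, which matched 28595 probes by accession, 2998 by symbol and 1176 by an older symbol of 50238, and kept the name in the file for 17469. Named genes are every replacement histone, the 8 largest rises and 8 largest falls among cluster genes well above background on all 4 arrays, the 6 cluster genes with a known polyadenylated transcript, the 3 largest changes of each related list, and PKP3. Other genes named were chosen after their values were seen. The histone genes, the lists and the tests were chosen with earlier results of these data known. The design text of the series ties same-numbered arrays to a shared RNA collection, and their deviations from the clone means had a correlation of -0.199 over 30520 probes. The comparison was made without this pairing. Alternatives were normexp background correction (offset 50), quantile normalization, median centring, other detection filters, the replicate block, each array left out, a trended and robust prior, and the mean of the probes of a gene. The crossed pairing, the 1.5-fold rule and the values by collection and by scaling were chosen after seeing the data.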

Additional observations from a re-analysis of the deposited data

How the results depend on the processing

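limma called 0 histone probes, replacement probes included, in either direction under every alternative run. With the replicate block, limma called 503 probes higher and 338 lower over the whole array, against 76 and 45 without it, and it changed no call of a histone probe. The crossed pairing gave 64 and 40. At 1.5-fold in place of 2-fold, a threshold added after seeing the data, the count of lower histone probes went from 0 to 3. The difference of the class medians became 0.043 under quantile normalization, -9.0e-05 when the detected probes of a gene were averaged, and lay between -0.14 and 0.020 with an array left out. The median of the replacement genes became -0.22 under quantile normalization and -0.15 with this averaging. With an array left out it lay between -0.13 and -0.0063, and that of the replication-dependent genes between -0.28 and 0.014. Log2 fold changes near 0 changed sign with the scaling. Under quantile normalization these were H2AFV (-0.0063), H2AFZ (-0.059), HIST1H1C (-0.043), HIST1H3A (-0.073), HIST1H4B (-0.039), HIST1H4C (-0.070), HIST1H4D (-0.0016) and HIST2H2AA3 (-0.046). Under median centring they were HIST1H1C (-0.026), HIST1H3A (-0.055), HIST1H3I (-0.034), HIST1H4B (-0.0075), HIST1H4D (-0.013) and HIST2H2AA3 (-0.059), and under normexp HIST1H3A (-0.0027) and HIST2H2AA3 (-0.0050). The cause was not tested. With an array left out in turn, 40 of the 66 histone genes tested changed the sign of their log2 fold change at least once, 31 of them without vec 2. Among the genes named by the rule, the histone genes and the related ones that did so ranged over H1F0 -0.34 to 0.75, H2AB3 -0.13 to 1.26, H2AFX -0.37 to 0.12, H2AFZ -0.040 to 0.19, H3F3B -0.20 to 0.034, HIRA -1.50 to 0.37, HIST1H1C -0.042 to 0.13, HIST1H2AI -0.73 to 0.050, HIST1H2BC -0.23 to 0.014, HIST1H2BD -0.45 to 0.096, HIST1H3A -0.065 to 0.095, HIST1H3I -0.14 to 0.21, HIST1H4B -0.35 to 0.48, HIST1H4C -0.25 to 0.47, HIST1H4D -0.36 to 0.48, HIST1H4L -0.27 to 0.92, HIST2H2AA3 -0.036 to 0.058, HIST2H2BE -0.28 to 0.15 and HIST2H4A -1.02 to 0.11. Among the genes named by the rule, moves of over 1.5 times without a change of sign, beside those given in the text, ranged over CENPA -0.90 to -0.44, H3F3A -0.082 to -0.030, HIST1H1E -0.54 to -0.26, HIST1H2AC -0.90 to -0.26, HIST1H2BK -0.38 to -0.091 and HIST1H3D -0.71 to -0.33. Of the genes named after their values were seen, HIST1H2BM ranged over -0.21 to -0.084, and the rest are not listed.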
